A study of Drosophila melanogaster with 56 samples.

Results

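The genes described here are 10 genes of sugar metabolism in the Drosophila embryo: 8 enzymes of glycolysis (Pgi, Pfk, Ald1, Tpi, Gapdh1, Gapdh2, Pgk and Eno), lactate dehydrogenase (Ldh, also called ImpL3) and the nuclear receptor ERR. They were chosen by their FlyBase gene IDs and for their known roles, but with earlier results of these data known. They are 10 of the 17558 gene IDs counted, of which 15927 had a count in any sample. All 10 passed the filter on low counts and were among the 11065 genes tested.

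Glycolysis splits glucose into pyruvate and yields ATP and NADH on the way. Lactate dehydrogenase turns pyruvate into lactate and returns NADH to NAD+, which lets glycolysis run on when little pyruvate enters mitochondria. In Drosophila, ERR, the only member of the estrogen-related receptor family in the fly, is known as the transcription factor that drives glycolytic genes and Ldh in midembryogenesis, ahead of the fast growth of the larva. The early embryo lives on mRNA and nutrients laid down by the mother, and much of the maternal mRNA is degraded as the embryo's own genes are switched on.

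The study followed mRNA and protein through embryogenesis to ask how far mRNA levels account for protein levels, and the mRNA measurements are described here. Wild-type Oregon R embryos, with no allele, transgene or treatment added, were collected from population cages in short laying windows and were used at once (0 h) or aged, in steps of 1 h up to 6 h and in steps of 2 h from there to 20 h. Each of the 14 time points had 4 biological replicates, 56 samples in all, and each sample was poly(A) RNA from a pool of many whole embryos. Because whole embryos were used, fewer cells that hold a transcript and less of it per cell cannot be told apart.

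Each sample had 13422473 to 22536043 counts on genes (median 16709770), so that 3 counts stood for 0.133 to 0.224 CPM. Levels are given as RPKM, in which the counts on a gene are divided by the length of its exons and by the counts on all genes of the sample. The 10 genes together took 0.274% to 0.349% of the counts at 1 h, 0.0229% to 0.0303% at 8 h and 0.289% to 0.359% at 20 h. Levels of marker genes were set beside the time points. The summed level of a list of 5 maternal germline markers was 738 to 865 RPKM at 1 h, 24.2 to 45.0 RPKM at 3 h and 48.3 to 106 RPKM at 20 h. The list was meant to hold bcd, osk, gcl, swa and nanos. In place of nanos it held Nos, nitric oxide synthase, so 1 of the 5 is not the germline gene meant. That of 8 muscle genes was 81.3 to 158 RPKM at 1 h and 6793 to 13407 RPKM at 20 h. The muscle sums did not follow the order of the time points throughout. Their medians were 601 RPKM at 0 h, 120 RPKM at 1 h, 268 RPKM at 2 h and 107 RPKM at 3 h. At 0 h, replicates 1 to 3 stood apart from replicate 4, with 583 to 653 RPKM of the muscle genes in replicates 1 to 3 and 54.4 RPKM in replicate 4, and at 18 h replicate 4 stood apart, with 7159 RPKM against 1727 to 3027 RPKM in replicates 1 to 3. Replicates 1 to 3 at 18 h lay below all 16 h samples (4057 to 5492 RPKM), and replicate 4 lay above them. Results that rest on the samples that stand apart are given with and without them.

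A gene is said to have risen or fallen when edgeR's quasi-likelihood test gave a Benjamini-Hochberg adjusted p under 0.05 over all genes tested and the fold change was at least 1 on the log2 scale. Fold changes are later minus earlier time point and are given with their standard error (SE). The p-values measure the spread between these samples.

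ERR (FBgn0035849) lies on chromosome 3L at 8183361 to 8186671 on the minus strand of BDGP6. Ldh (FBgn0001258) lies on 3L at 6259105 to 6262694, minus strand. Pgi (FBgn0003074) lies on 2R at 8910900 to 8914069, minus strand, Pfk (FBgn0003071) on 2R at 10109740 to 10117457, plus strand, and Gapdh1 (FBgn0001091) on 2R at 7791901 to 7793380, minus strand. Ald1 (FBgn0000064, formerly Ald) lies on 3R at 26254069 to 26261591, minus strand, and Tpi (FBgn0086355) on 3R at 30132981 to 30134599, minus strand. Gapdh2 (FBgn0001092) lies on X at 15868145 to 15869661, plus strand. Pgk (FBgn0250906) lies on 2L at 2746880 to 2753068 and Eno (FBgn0000579) on 2L at 1724768 to 1729636, both on the minus strand. Of the ERR exon bases, 52.2% are also covered by exons of Uxs and of 2 antisense RNAs on the opposite strand, and the strand setting of the counting is not given in the sources used here, so the level of ERR is less certain than those of the enzymes. The overlap was 9.74% for Eno (with Rrp40), 8.87% for Ald1 (with an antisense RNA) and 3.08% for Pgk (with Cwc25), and the other 6 genes had none.

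Over the whole course, 7 of the 8 glycolytic enzymes had the shape of a trough: high in the first hours, low between 3 and 12 h, and high again from 14 h. Pgi, Ldh and ERR each departed from it. Pgi and ERR had their lowest level at 2 h, and Ldh was lowest at 1 h and at its highest mean at 16 h, 106 times as high. The highest mean level after 0 h was between 7.11 times (Pgk) and 99.1 times (Gapdh2) the lowest in the 8 enzymes, and 10.6 times in ERR.

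**Figure D1:**
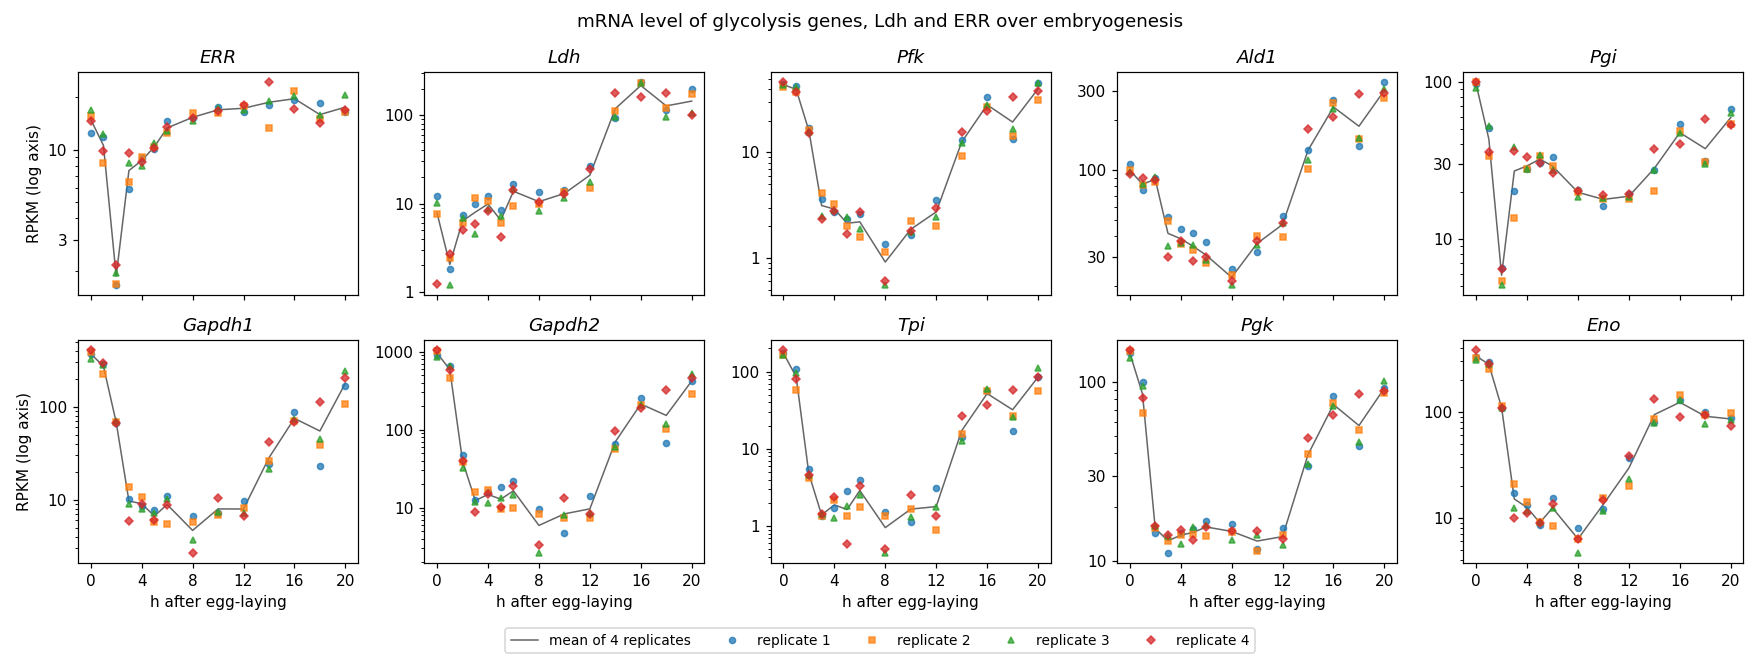
RPKM (log axis) of each of the 10 genes against time after egg-laying, with 1 point per replicate and a line through the mean of 4 replicates. Pfk, Tpi, Gapdh1, Gapdh2 and Eno reached their lowest means at 8 h, ERR and Pgi at 2 h and Ldh at 1 h.

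At 6 against 1 h, 7 of the 10 genes fell (Pfk, Ald1, Tpi, Gapdh1, Gapdh2, Pgk and Eno), where 19.1% of all genes tested fell. Ldh alone rose, where 36.2% of all genes rose, and ERR and Pgi did not reach the fold minimum. The median of the 10 genes was -3.19, against 0.48 over all genes, on the log2 scale. That median over all genes rests on the scaling. It was -0.01 when a 2 h library in place of a 16 h library served as the reference for scaling, with 3257 genes up and 3105 down in place of 4009 and 2113, but the 10 genes lay 3.67 below it with the first scaling and 3.69 below it with the second.

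At 12 against 6 h, 1 of the 10 genes, Eno, rose, where 13.5% of all genes did, and none fell, where 11.3% did. The median of the 10 genes was -0.08 and that of all genes was -0.15. With the 2 h library as reference, 1770 of all genes rose and 946 fell at 12 against 6 h. At 18 against 12 h, 9 of the 10 genes rose, where 23.4% of all genes rose, and none fell, where 7.02% did. The median of the 10 genes was 2.33, against -0.01 for all genes, and ERR was the gene that did not rise. With the 2 h library as reference, 2340 genes rose and 1382 fell in place of 2584 and 777, and 8 of the 10 genes rose.

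Taken step by step between neighbouring time points, the 10 genes gave 39 calls over 13 steps. Of these, 15 lay in 2 of the steps. At 2 against 1 h, 6 genes fell and 1 rose, where 13.2% of all genes fell and 24.5% rose, and at 3 against 2 h, 6 genes fell and 2 rose, where 20.1% fell and 23.2% rose. The balance over all genes at 2 against 1 h turned with the scaling. There were 2712 genes up and 1460 down, but 1434 up and 2107 down with the 2 h library as reference, 1715 and 1906 with total counts, and 912 and 2070 with only the 8 samples compared. In each of those 3 fits Ldh was still the only one of the 10 called up, and Pfk and Eno were called down beside the other 6. With the 2 h library the share of rises among called genes moved by more than 10 percentage points at 5 of the 13 steps, the others being 5 against 4 h (198 up, 210 down), 6 against 5 h (224 up, 205 down), 8 against 6 h (231 up, 270 down) and 14 against 12 h (1677 up, 1023 down). None of the 10 genes was called by edgeR or by DESeq2 at 4 against 3 h, where 1.77% of all genes fell and 0.0362% rose, or at 5 against 4 h, where 2.50% fell and 1.20% rose. At an unadjusted p under 0.05, 0 of the 10 passed in the earlier and 2 in the later of these steps. At 6 against 5 h, Ldh alone rose, where 2.85% of all genes rose and 1.11% fell. At 8 against 6 h, 4 genes fell (Pfk, Gapdh2, Tpi and Eno), where 3.86% of all genes fell and 0.741% rose. Of these calls, that of Eno was lost with DESeq2 (-0.97), in 4 other settings (-0.97 to -0.79) and without 6 h replicate 1 (-0.94), 6 h replicate 4 (-0.96) or 8 h replicate 3 (-0.91). The 8 muscle genes had a median of -1.34 at that step, with 0 called. At 8 h their sum was higher in replicates 1 and 2 (310 and 279 RPKM) than in replicates 3 and 4 (135 and 168 RPKM). Pfk, Gapdh2 and Tpi, but not Eno, were split in the same way. The part of tissue makeup or age in these falls was not tested. At 10 against 8 h edgeR called none of the 10, where 8.25% of all genes rose and 1.74% fell, while DESeq2 called 1 and 5 passed at an unadjusted p under 0.05. At 14 against 12 h, 8 genes rose, where 17.9% of all genes rose and 5.81% fell. At 16 against 14 h, 4 rose (Pfk, Gapdh1, Gapdh2 and Tpi), where 1.48% rose and 0.687% fell. The same 4 rose at 20 against 18 h, where 17.2% rose and 6.05% fell, but with only those 8 samples in the edgeR fit none of all genes was called at that step, with 4745 at an unadjusted p under 0.05, while DESeq2 on all samples called 2222 up and 538 down. Between these, at 18 against 16 h, neither edgeR nor DESeq2 called any of the 10, and 0 of them passed at an unadjusted p under 0.05. Of all genes 0.398% rose and 0 fell in edgeR, and the 10 fold changes lay between -0.57 (Ldh) and -0.10 (ERR). These values include 18 h replicate 4, which stands apart. Over 18 h replicates 1 to 3 the means of Pfk, Gapdh1, Gapdh2 and Tpi were 14.7, 35.4, 95.8 and 23.2 RPKM. At 16 h they were 28.2, 74.9, 213 and 52.0 RPKM. In these 4 genes no sample of 18 h replicates 1 to 3 overlapped with 16 h. Calls at this step without replicate 4 are not given here.

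**Figure D2:**
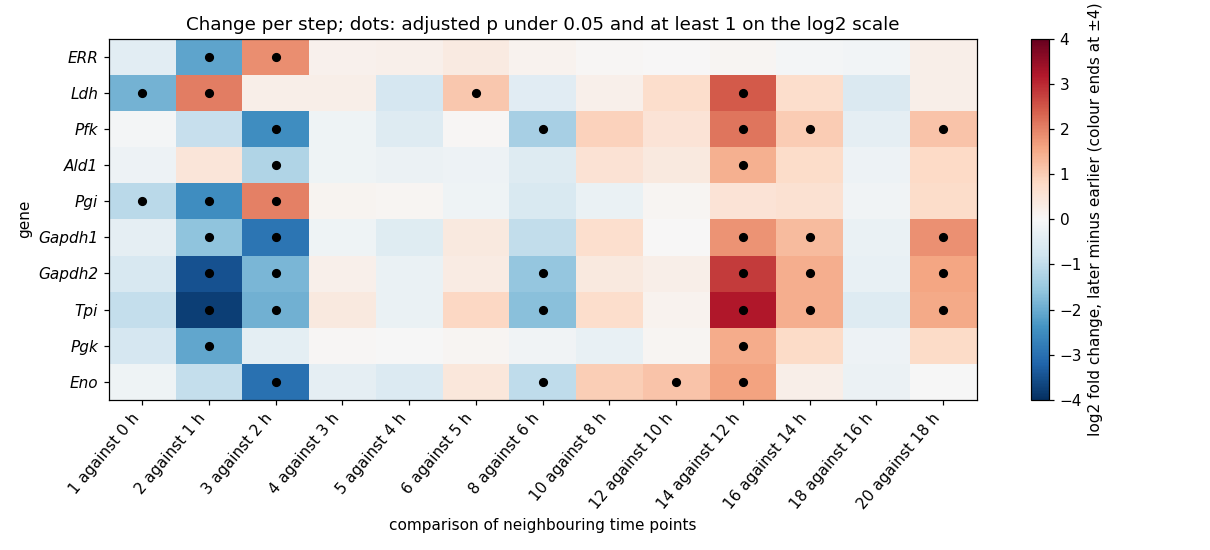
Log2 fold change of each gene (vertical) at each of the 13 steps between neighbouring time points (horizontal, later minus earlier), in colour that ends at 4 in either direction, with a dot for each of the 39 calls. Most calls lie at 2 against 1 h, 3 against 2 h and 14 against 12 h, and ERR has none after 3 h.

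ERR encodes the nuclear receptor. Its mean level was 14.9 ± 1.85 RPKM at 0 h, 10.6 ± 1.85 at 1 h, 1.86 ± 0.236 at 2 h, 7.56 ± 1.68 at 3 h, 8.64 ± 0.483 at 4 h, 10.4 ± 0.360 at 5 h and 13.3 ± 0.958 RPKM at 6 h (SD, n = 4 at each time). From there it was 15.3 ± 0.670 at 8 h, 17.0 ± 0.614 at 10 h, 17.3 ± 0.809 at 12 h, 18.7 ± 4.61 at 14 h, 19.7 ± 1.90 at 16 h, 15.9 ± 1.88 at 18 h and 17.6 ± 1.99 RPKM at 20 h. From 8 to 20 h no step was called, and from 10 h on the replicates of each time overlapped with those of the next.

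The sharpest changes of ERR were at 2 h. The 4 replicates had 1.66, 1.68, 1.93 and 2.16 RPKM at 2 h, against 11.9, 8.34, 12.3 and 9.76 RPKM at 1 h, and the 2 h level rested on 62 to 87 counts per sample. All 2 h samples lay far below all 1 h samples, and ERR fell by 2.11 on the log2 scale (SE 0.13, edgeR adjusted p = 2.18e-18). At 3 h the replicates had 5.91, 6.45, 8.37 and 9.52 RPKM, again with no overlap with 2 h, and ERR rose by 1.85 (SE 0.13, edgeR adjusted p = 1.04e-16). The ERR transcript was thus at its lowest at 2 h, as was that of Pgi, which also rose at 3 against 2 h, while Pfk, Ald1, Tpi, Gapdh1, Gapdh2 and Eno fell at that step.

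After 3 h ERR had no call at any single step, although its mean RPKM was higher at each time than at the one before up to 16 h. The last of these rises rests on the scaling. At 16 against 14 h the edgeR log2 fold change of ERR was -0.07 (SE 0.12). With TMM-scaled RPKM its 16 h mean was 16.2 RPKM in place of 19.7 RPKM. At 6 against 1 h its log2 fold change was 0.46 (SE 0.12, edgeR adjusted p = 0.000896), short of the fold minimum, and it was -0.05 with the 2 h library as reference. At 12 against 6 h it was 0.21 (SE 0.12, edgeR adjusted p = 0.154). ERR had 18.6, 15.0, 15.8 and 14.3 RPKM at 18 h, against 16.4, 18.0, 16.8 and 18.0 RPKM at 12 h. The groups overlapped, with a log2 fold change of -0.11 (SE 0.12, edgeR adjusted p = 0.455), in the span in which the other 9 genes all rose.

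Among the enzymes of the first steps, Pgi, which turns glucose 6-phosphate into fructose 6-phosphate, had a course of its own. The replicates at 0 h had 96.7, 99.5, 91.2 and 100 RPKM, and those at 1 h had 51.1, 33.7, 52.7 and 35.6 RPKM. At 2 h they had 6.50, 5.39, 5.09 and 6.43 RPKM, and at 3 h 20.0, 13.7, 38.3 and 36.3 RPKM. None of these times overlapped with the next. Like ERR, Pgi thus had its lowest samples at 2 h.

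Pgi fell at 1 against 0 h (log2 fold change -1.08, SE 0.17, edgeR adjusted p = 1.90e-05), where 12.1% of all genes fell and 0.136% rose, and it also fell against 0 h replicate 4 alone (-1.04). The background rests on the 0 h samples that stand apart, since 1337 genes fell and 15 rose against all 0 h samples, but 58 fell and 100 rose against replicate 4 alone, and 81 fell and 13 rose with only the 8 samples compared. Pgi did not reach the fold minimum without 1 h replicate 2 (-0.999), without 1 h replicate 4 (-0.97) or with the 2 h library as reference (-0.91). At 2 against 1 h Pgi fell by 2.49 (SE 0.18, edgeR adjusted p = 4.33e-16), and at 3 against 2 h it rose by 2.01 (SE 0.18, edgeR adjusted p = 1.93e-13). Between 3 and 12 h no step was called, and its mean was lowest, 17.8 ± 1.13 RPKM (SD, n = 4), at 10 h.

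In late embryos Pgi had 31.5, 30.8, 30.1 and 58.0 RPKM at 18 h, against 19.3, 17.8, 18.4 and 19.3 RPKM at 12 h. It rose by 1.01 (SE 0.17, edgeR adjusted p = 4.59e-06), just past the fold minimum, and no 18 h sample overlapped with 12 h. The highest value belonged to 18 h replicate 4, the sample with the most muscle mRNA, and without that sample the log2 fold change was 0.75. It was also below the minimum without 12 h replicate 2 (0.96) and with the 2 h library as reference (0.79), so the direction held while the call did not.

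Pfk, phosphofructokinase, catalyses the committed step of glycolysis. Its replicates had 2.62, 1.57, 1.89 and 2.73 RPKM at 6 h, against 42.3, 37.2, 41.3 and 37.3 RPKM at 1 h. The lowest level was at 8 h, with 1.36, 1.14, 0.559 and 0.606 RPKM from 44 to 100 counts per sample. The groups lay apart, and Pfk fell by 4.04 at 6 against 1 h (SE 0.26, edgeR adjusted p = 1.43e-18).

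Most of the fall of Pfk came at the step from 2 to 3 h. At 2 h the replicates had 15.3 to 16.9 RPKM, a log2 fold change of -0.91 against 1 h (SE 0.23), which did not reach the fold minimum, and at 3 h they had 2.34 to 4.14 RPKM, a fall by 2.48 (SE 0.24, edgeR adjusted p = 2.32e-12). Pfk fell once more, by 1.34, at 8 against 6 h (SE 0.25, edgeR adjusted p = 0.000210). It then had 13.03, 9.18, 12.3 and 15.5 RPKM at 14 h, against 3.53, 2.02, 2.44 and 2.94 RPKM at 12 h. This was a rise by 2.14 (SE 0.24, edgeR adjusted p = 3.60e-09) with no overlap.

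Ald1, the aldolase that cleaves fructose 1,6-bisphosphate, kept its early level to 2 h. It had 89.5, 85.3, 91.5 and 86.8 RPKM at 2 h, against 75.5, 81.4, 82.4 and 89.7 RPKM at 1 h, and these groups overlapped. At 3 h it had 52.2, 49.6, 34.9 and 29.9 RPKM, a fall by 1.21 (SE 0.17, edgeR adjusted p = 3.77e-08). The mean at 8 h, 22.6 ± 2.16 RPKM (SD, n = 4), was still 27.5% of that at 1 h, where that of Pfk was 2.32%.

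Ald1 then had 132, 102, 115 and 178 RPKM at 14 h, against 52.9, 39.6, 48.0 and 47.8 RPKM at 12 h. All 14 h samples were above all 12 h samples, and Ald1 rose by 1.43 (SE 0.17, edgeR adjusted p = 1.43e-08). At 18 against 12 h it rose by 1.96 (SE 0.17, edgeR adjusted p = 7.58e-12), and by 1.69 without 18 h replicate 4. Its mean at 20 h, 303 ± 29.2 RPKM, was the highest of its course.

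Tpi, triose phosphate isomerase, interconverts the triose phosphates that aldolase releases. It had the deepest early fall of the 10 genes at a single step. The replicates had 5.57, 4.20, 4.58 and 4.63 RPKM at 2 h, against 109, 57.5, 96.1 and 80.5 RPKM at 1 h, and Tpi fell by 3.78 (SE 0.37, edgeR adjusted p = 2.90e-12). At 8 h it had 1.53, 1.34, 0.453 and 0.503 RPKM from 13 to 40 counts per sample, the lowest counts of any of the 10 genes.

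The late rise of Tpi was correspondingly steep. It had 14.1, 15.4, 12.6 and 26.7 RPKM at 14 h, against 3.15, 0.903, 1.78 and 1.34 RPKM at 12 h, with no overlap and a rise by 3.21 (SE 0.38, edgeR adjusted p = 1.02e-08). At 18 against 12 h the rise was 4.15 (SE 0.39, edgeR adjusted p = 2.33e-11), and 3.71 without 18 h replicate 4. The replicates at 20 h had 85.5, 56.7, 112 and 85.7 RPKM, which overlapped the 1 h range.

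Gapdh1 and Gapdh2 are the pair of genes for glyceraldehyde 3-phosphate dehydrogenase, the enzyme that makes NADH in glycolysis. The copies are related in sequence, and reads that matched several places were not counted on genes, so that a share of reads from either gene may be missing. Gapdh2 was the most abundant of the 10 per length at 1 h, with 657, 452, 653 and 584 RPKM, and it had 47.5, 38.6, 32.6 and 39.9 RPKM at 2 h. Gapdh1 had 285, 224, 284 and 296 RPKM at 1 h and 66.5, 68.9, 70.2 and 66.0 RPKM at 2 h. In both genes the 1 h and 2 h samples were far apart, but the drop differed in size.

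At 2 against 1 h Gapdh2 fell by 3.49 (SE 0.36, edgeR adjusted p = 2.03e-11) and Gapdh1 by 1.61 (SE 0.30, edgeR adjusted p = 7.74e-06). At 3 against 2 h Gapdh2 fell by 1.81 (SE 0.35, edgeR adjusted p = 1.26e-05) and Gapdh1 by 2.92 (SE 0.31, edgeR adjusted p = 3.67e-11). Taken over 6 against 1 h, the falls were 5.04 (SE 0.39) and 4.82 (SE 0.34), so that both genes came to a like depth by different steps.

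The ratio of Gapdh2 to Gapdh1 RPKM within a sample shows the order of these steps without any scaling between samples. It was 2.57 ± 0.103 at 0 h, 2.15 ± 0.177 at 1 h, 0.586 ± 0.104 at 2 h, 1.30 ± 0.144 at 3 h, 1.20 ± 0.229 at 12 h, 2.51 ± 0.294 at 14 h, 2.84 ± 0.0600 at 16 h and finally 2.396 ± 0.248 at 20 h (SD, n = 4). At 2 h Gapdh1 was the more abundant paralog in every sample, with ratios of 0.464 to 0.715, and at 14 h the ratio was 2.21 to 2.80, against 0.912 to 1.47 at 12 h. The ratios at 2 against 1 h, 3 against 2 h and 14 against 12 h did not overlap in any of the 3 comparisons. Each had p = 0.0286 (two-sided exact permutation test, n = 4 each, adjusted p = 0.0286 over the 3), the smallest p that 4 against 4 samples allow. These comparisons were picked after the levels had been seen.

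**Figure D3:**
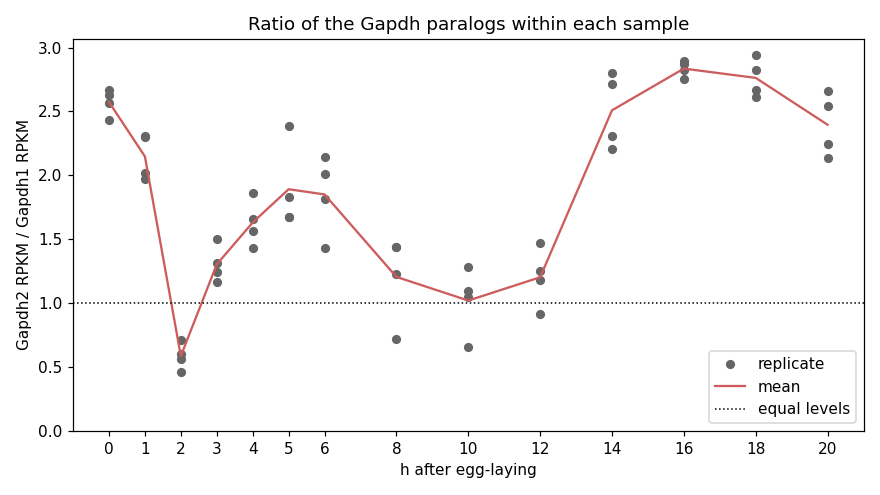
Ratio of Gapdh2 to Gapdh1 RPKM in each sample against time after egg-laying, with points for replicates, a line for the mean of 4 and a dotted line where both levels are equal. The 4 samples at 2 h lie between 0.464 and 0.715, below the dotted line, and those at 16 h lie between 2.76 and 2.89.

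In late embryos, Gapdh2 had 65.1, 57.1, 59.6 and 97.1 RPKM at 14 h, against 14.2, 7.45, 8.57 and 8.36 RPKM at 12 h. Gapdh1 had 24.0, 25.9, 21.3 and 42.0 RPKM at 14 h, against 9.69, 8.17, 7.25 and 6.70 RPKM at 12 h. Neither gene overlapped between these times, and Gapdh2 rose by 2.80 (SE 0.36, edgeR adjusted p = 5.22e-08) and Gapdh1 by 1.79 (SE 0.31, edgeR adjusted p = 8.28e-06). At 18 h both genes differed strongly between samples. Replicate 4 had 320 RPKM of Gapdh2 and 113 RPKM of Gapdh1, against 67.3 to 120 RPKM and 22.9 to 44.8 RPKM in replicates 1 to 3, and at 18 against 12 h the rises by 3.96 (Gapdh2) and 2.78 (Gapdh1) became 3.33 and 2.18 without it.

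Pgk, phosphoglycerate kinase, makes the first ATP of the pathway, and only 1 step of its early fall was called. At 1 against 0 h it had a log2 fold change of -0.68 (SE 0.13, edgeR adjusted p = 0.000356), short of the fold minimum. It had 14.3, 15.3, 15.7 and 15.7 RPKM at 2 h, against 99.9, 67.3, 94.6 and 80.8 RPKM at 1 h, a fall by 2.09 (SE 0.14, edgeR adjusted p = 2.04e-17). From 2 to 12 h its mean stayed between 12.98 and 15.5 RPKM, with no step called. The floor was thus flat and, at 17.2% of the 1 h mean at 8 h, shallow beside that of Tpi (1.12%) or Gapdh2 (1.01%).

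At 14 h Pgk had 33.9, 39.8, 35.0 and 48.7 RPKM, against 15.3, 14.0, 12.4 and 13.3 RPKM at 12 h. The groups did not overlap, and Pgk rose by 1.49 (SE 0.14, edgeR adjusted p = 8.34e-11). At 18 against 12 h it rose by 2.06 (SE 0.14, edgeR adjusted p = 7.62e-15), with the smallest adjusted p of the 10 genes in that comparison.

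Eno, enolase, makes phosphoenolpyruvate and was the only one of the 8 glycolytic enzymes called up at a step between 3 and 12 h. It had 17.0, 20.9, 12.3 and 9.91 RPKM at 3 h, against 109, 114, 109 and 108 RPKM at 2 h, a fall by 2.98 (SE 0.21, edgeR adjusted p = 1.25e-16), the largest fall at that step among the 10 genes. After its lowest level at 8 h, with 7.97, 6.34, 4.68 and 6.34 RPKM, it had 36.9, 20.0, 23.2 and 38.2 RPKM at 12 h, against 12.0, 15.3, 11.7 and 14.7 RPKM at 10 h. All 12 h samples lay above all 10 h samples.

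Eno was the only gene of the 10 called at 12 against 10 h, with a rise by 1.15 (SE 0.20, edgeR adjusted p = 0.00117), where 0.443% of all genes rose. Without 12 h replicate 1 it was 0.99. At 12 against 6 h its rise was 1.10 (SE 0.20, edgeR adjusted p = 1.09e-05), which went below the fold minimum without 6 h replicate 2 (0.96), 12 h replicate 1 (0.94) or 12 h replicate 4 (0.97). From 14 h on Eno had no further call, with means of 94.2 ± 25.5 RPKM at 14 h, 123 ± 23.1 RPKM at 16 h, 90.9 ± 9.56 RPKM at 18 h and 85.7 ± 9.51 RPKM at 20 h (SD, n = 4).

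Ldh was the gene with the largest change. Its mean level was 7.78 ± 4.75 RPKM at 0 h, 2.04 ± 0.670 at 1 h, 6.35 ± 1.02 at 2 h, 7.99 ± 3.29 at 3 h, 9.88 ± 1.78 at 4 h, 6.47 ± 1.79 at 5 h and 13.8 ± 3.12 RPKM at 6 h (SD, n = 4 at each time). It was 10.5 ± 2.18 at 8 h, 13.01 ± 1.16 at 10 h, 20.9 ± 5.38 at 12 h, 119 ± 39.9 at 14 h, 218 ± 36.2 at 16 h, 128 ± 36.7 at 18 h and 145 ± 48.9 RPKM at 20 h. Between 2 and 12 h only the step from 5 to 6 h was called, and the step with the largest change was that from 12 to 14 h.

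At 14 h Ldh had 93.2, 111, 94.8 and 178 RPKM, against 26.4, 15.1, 17.7 and 24.6 RPKM at 12 h. The lowest 14 h sample was above the highest 12 h sample, and Ldh rose by 2.46 (SE 0.35, edgeR adjusted p = 4.12e-07). At 18 against 12 h it rose by 2.61 (SE 0.35, edgeR adjusted p = 6.80e-08), and by 2.41 without 18 h replicate 4. The 16 h replicates had 239, 235, 233 and 163 RPKM, and the 20 h replicates had 198, 174, 107 and 100 RPKM, a log2 fold change of -0.35 (SE 0.33, edgeR adjusted p = 0.409) at 20 against 16 h, which leaves the order of 16, 18 and 20 h undecided.

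Ldh also moved early, in the direction opposite to the enzymes other than Ald1. At 2 against 1 h Ald1 had a log2 fold change of 0.50 (SE 0.17), short of the fold minimum. That lay below the median of all genes at that step, 0.75, which was 0.20 with the 2 h library as reference. The RPKM of Ald1 at 1 h and 2 h overlapped, so its direction rests on the scaling. Ldh had 7.40, 6.00, 6.90 and 5.08 RPKM at 2 h, against 1.83, 2.44, 1.20 and 2.70 RPKM at 1 h, where it had 45 to 89 counts per sample. The groups did not overlap, and Ldh rose by 2.03 (SE 0.37, edgeR adjusted p = 6.16e-06) while Pgi, Tpi, Gapdh1, Gapdh2, Pgk and ERR fell. All 8 muscle genes also rose at that step, with a median of 1.66, where 24.5% of all genes rose. Their summed level was 81.3 to 158 RPKM at 1 h and 212 to 422 RPKM at 2 h. The 2 h samples ranked alike by Ldh and by that sum. The part of RNA from late embryos in the 2 h level of Ldh was not tested. Ldh rose again by 1.08 at 6 against 5 h (SE 0.35, edgeR adjusted p = 0.0381), with 16.8, 9.39, 14.7 and 14.3 RPKM at 6 h, against 8.36, 6.02, 7.29 and 4.20 RPKM at 5 h. That call was lost in 6 of the 8 fits that left out a sample, with an adjusted p of up to 0.130, with no filter on low counts (adjusted p = 0.0517) and with the 2 h library as reference (0.94). At 6 against 1 h Ldh rose by 2.88 (SE 0.37, edgeR adjusted p = 3.23e-09).

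The 0 h level of Ldh rests on samples that stand apart. Replicates 1 to 3 had 12.1, 7.60 and 10.2 RPKM and replicate 4 had 1.23 RPKM, in the same split as the muscle genes. Over all samples Ldh fell by 1.88 at 1 against 0 h (SE 0.37, edgeR adjusted p = 0.000330), but against 0 h replicate 4 alone the log2 fold change was 0.89 (edgeR adjusted p = 0.446, the lone sample being assumed to vary like the others). The part of late RNA in the 0 h value was not tested, and no fall of Ldh is claimed. In the glycolytic enzymes replicate 4 was not far below the others at 0 h. Tpi had 176, 165, 162 and 190 RPKM and Pfk had 44.0, 41.5, 43.5 and 46.4 RPKM in replicates 1 to 4. Replicate 4 was the highest in all of these enzymes but Ald1, as in Eno (383 RPKM, the others 309 to 330 RPKM). In Ald1 it was the lowest (94.3 RPKM, the others 97.6 to 109 RPKM).

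The late levels were also set against the early ones. At 20 against 1 h, 2 of the 10 genes rose (Ldh and Ald1), where 44.5% of all genes rose, and 1 fell (Eno), where 30.3% did. The median of the 10 genes was 0.11, against 0.46 over all genes. With the 2 h library as reference these medians were -0.52 and -0.14, with 4452 genes up and 4397 down in place of 4922 and 3358, and Gapdh1 (-1.17) and Gapdh2 (-1.06) were then called too, which gave 2 genes up and 3 down. Fold changes in this comparison are therefore read relative to the median of all genes.

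Ldh had 198, 174, 107 and 100 RPKM at 20 h, against 1.20 to 2.70 RPKM at 1 h, a rise by 6.15 (SE 0.42, edgeR adjusted p = 8.78e-18) that stood 5.69 above the median of all genes. Ald1 had 340, 272, 309 and 291 RPKM at 20 h, against 75.5 to 89.7 RPKM at 1 h, a rise by 1.92 (SE 0.17, edgeR adjusted p = 6.51e-14) and 1.46 above that median. Eno had 88.0, 97.1, 83.6 and 74.3 RPKM at 20 h, against 298, 254, 285 and 286 RPKM at 1 h, a fall by 1.68 (SE 0.20, edgeR adjusted p = 2.11e-10) that placed it -2.14 from the median. No group overlapped in any of these 3 genes.

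The other 7 genes did not pass. Pfk (0.06), Tpi (0.05), Pgk (0.15), Gapdh2 (-0.42) and Gapdh1 (-0.53) had edgeR adjusted p of 0.799, 0.883, 0.276, 0.224 and 0.0822. ERR (0.78) and Pgi (0.49) had adjusted p of 1.26e-07 and 0.00744 but were short of the fold minimum, and ERR passed it (1.20) with the size factors of DESeq2. Relative to the median of all genes, Pfk, Tpi, Pgk, Gapdh1 and Gapdh2 lay at -0.40, -0.41, -0.31, -0.99 and -0.88. With only the 8 samples compared these were -0.026, -0.037, 0.065, -0.62 and -0.51, so that the place of Pfk, Tpi and Pgk against that median depends on the fit.

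**Figure D4:**
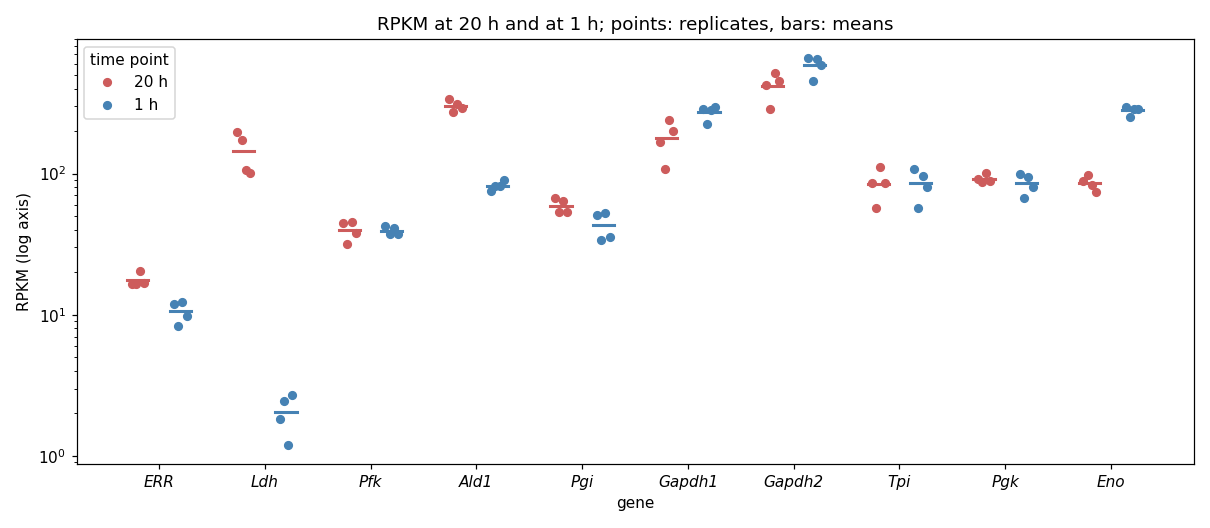
RPKM (log axis) of each gene at 20 h (left) and at 1 h (right), with points for the 4 replicates and bars for their means. Ldh and Ald1 lie higher at 20 h, Eno lies lower, and the points of Pfk, Tpi, Pgk, Gapdh1 and Gapdh2 overlap between the times.

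Per length, the order of the levels at 20 h was Gapdh2 (419 ± 95.4 RPKM), Ald1 (303 ± 29.2), Gapdh1 (179 ± 56.3), Ldh (145 ± 48.9), Pgk (92.3 ± 6.16), Eno (85.7 ± 9.51), Tpi (84.9 ± 22.6), Pgi (59.4 ± 7.11), Pfk (40.0 ± 6.54) and ERR (17.6 ± 1.99) (SD, n = 4). The ranges of Gapdh2 and Ald1 overlapped, as did those of each neighbouring pair from Gapdh1 through Ldh, Pgk, Eno and Tpi to Pgi. Within a sample, Gapdh2 was above Ald1, Ldh above Pgk and Tpi above Pgi in all 4 samples. The order of Gapdh1 and Ldh, of Pgk and Eno, and of Eno and Tpi changed between samples. Ald1 and Gapdh1, Pgi and Pfk, and Pfk and ERR did not overlap. At 8 h the order was another one, with Ald1 (22.6 ± 2.16 RPKM), Pgi (19.8 ± 0.890), ERR (15.3 ± 0.670) and Pgk (14.7 ± 1.27) above Ldh (10.5 ± 2.18), Eno (6.33 ± 1.34), Gapdh2 (5.92 ± 3.45), Gapdh1 (4.68 ± 1.80), Tpi (0.958 ± 0.560) and Pfk (0.917 ± 0.397). Gapdh2, first in order at 20 h, thus stood below ERR at 8 h.

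In the last hours 4 of the genes rose further. At 20 against 18 h, Pfk rose by 1.14 (SE 0.23), Gapdh1 by 1.83 (SE 0.30), Gapdh2 by 1.58 (SE 0.34) and Tpi by 1.51 (SE 0.33), with edgeR adjusted p of 0.000108, 8.16e-06, 0.000220 and 0.000301, and Eno had -0.02 (SE 0.20). These calls were lost when the fit held only the 8 samples compared, with adjusted p of 0.0533 to 0.0535. Without 18 h replicate 4 they were 1.49, 2.41, 2.19 and 1.93, and without 18 h replicate 1 Pfk was below the fold minimum (0.98). At 20 against 16 h, added because 18 h holds the sample that stands apart, Gapdh1 (1.57, SE 0.30), Gapdh2 (1.28, SE 0.33) and Tpi (1.01, SE 0.33) rose, where 17.1% of all genes rose and 3.80% fell. The call of Gapdh2 went below the fold minimum with total counts as the only scaling (0.98), and that of Tpi in 9 of the alternatives tried.

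Markers of muscle, a tissue rich in glycolytic enzymes, went up over the same hours. Of 8 muscle genes, 7 rose at 18 against 12 h, with a median of 3.81, and so did 3 of 5 neuron genes, where 23.4% of all genes rose. The summed level of the muscle genes was 1727 to 7159 RPKM at 18 h, against 801 to 954 RPKM at 12 h, and that of the neuron genes was 47.5 to 92.5 RPKM at 18 h, against 67.9 to 81.0 RPKM at 12 h. The 14 h sample with the highest muscle sum (replicate 4, 3026 RPKM, the others 1496 to 2037 RPKM) also had the highest level of all 10 genes at 14 h. The part of tissue makeup, or of small differences in age, in the rise was not tested.

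Genes of neighbouring pathways were counted in the same comparison, in which 23.4% of all genes rose and 7.02% fell. Of the remaining glycolytic genes, 2 of 4 tested rose at 18 against 12 h: Pglym78, phosphoglycerate mutase (2.51, SE 0.26), with 59.0 ± 16.5 RPKM at 18 h and 10.3 ± 2.05 RPKM at 12 h, and PyK, pyruvate kinase (2.04, SE 0.22), with 20.3 ± 10.9 RPKM at 18 h and 4.92 ± 0.665 RPKM at 12 h. Hex-A, a hexokinase, had -0.04 (SE 0.20). Of 8 genes of glycogen and trehalose use and sugar uptake, 5 rose, led by Glyp, glycogen phosphorylase (3.04, SE 0.39), AGBE, the glycogen branching enzyme (2.35, SE 0.25) and Glut1, a glucose transporter (1.71, SE 0.25). Both tested genes of gluconeogenesis rose, PCB, pyruvate carboxylase (1.78, SE 0.21) and fbp, fructose bisphosphatase (1.46, SE 0.16).

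Outside that core, 1 of 6 pentose phosphate genes rose, Pgd, phosphogluconate dehydrogenase (1.70, SE 0.20), where 23.4% of all genes rose. Of 15 genes of pyruvate entry and the tricarboxylic acid cycle, 1 rose, Mdh2, mitochondrial malate dehydrogenase (2.44, SE 0.29), with a median of 0.53 over the list. Neither gene of the glycerol phosphate shuttle, which also returns NADH to NAD+, was called at 18 against 12 h, and Gpdh1 had -0.87 (SE 0.23). Both shuttle genes rose at 20 against 18 h, where 17.2% of all genes rose. At that step every call was lost with only the 8 samples compared. The median over all genes at 18 against 12 h was -0.01.

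**Figure D5:**
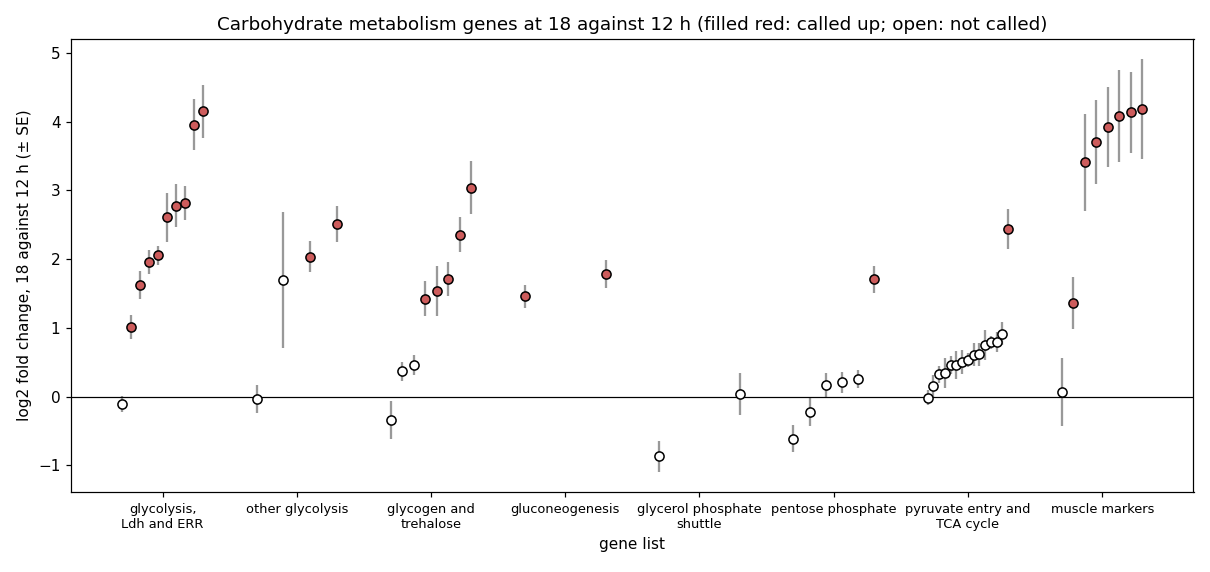
Log2 fold change at 18 against 12 h (± SE) of each tested gene, grouped by gene list, with filled points for genes that rose and open points for genes not called. The 10 genes described here have 9 filled points, the pyruvate entry and TCA cycle list 1 of 15 and the muscle markers 7 of 8.

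The same lists were counted in the early fall. At 6 against 1 h, 3 of 4 other glycolytic genes, 7 of 8 glycogen and trehalose genes, 5 of 6 pentose phosphate genes and 8 of 15 pyruvate and tricarboxylic acid genes fell, with medians of -3.81, -3.15, -1.44 and -1.03, where 19.1% of all genes fell. Of the 5 genes of the maternal germline list, which holds Nos in place of nanos, 4 fell, with a median of -4.93. At 2 against 1 h, 5 of 6 pentose phosphate genes had already fallen, as had 1 of 4 other glycolytic genes, and 3 of the 4 fell at 3 against 2 h, where 13.2% of all genes fell at the earlier and 20.1% at the later step.

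The likeness of the courses among the 10 genes was highest between Gapdh2 and Tpi, with a Pearson correlation of 0.99 over the 14 time points on log2 mean RPKM (0.1 added). It was 0.99 for Tpi with Pgk and 0.97 for Gapdh1 with Gapdh2. Ldh had 0.15 to 0.36 with Pgi, Pfk, Tpi, Gapdh1, Gapdh2, Pgk and Eno over all 14 time points and 0.70 with Ald1, but 0.92 to 0.97 with all 8 enzymes save Pgi (0.67) over the 10 time points from 4 to 20 h. ERR had -0.03 to 0.64 with the 8 enzymes and 0.52 with Ldh over all time points. From 4 to 20 h it had 0.45 to 0.64 with the 8 enzymes save Pgi (0.09), and 0.70 with Ldh. These are descriptions over time points that share libraries, and they carry no test.

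Among 7566 genes with a mean count of at least 100, the courses most like that of ERR were those of Srp72 (0.99), eIF3j (0.99) and CG11699 (0.99). Those most like the course of Ldh were Fa2h (0.99), Sik2 (0.99) and pwn (0.99). None of the other 9 genes was among the 3 nearest to ERR or to Ldh.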

How the data were processed

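Poly(A) RNA of 56 whole-embryo samples was sequenced as single-end reads from a stranded library kit. The authors mapped reads to BDGP6 with STAR 2.4.0h, dropped reads with too many matches, kept primary alignments and counted reads per gene with HTSeq 0.6.1p1 in union mode on the Ensembl 79 annotation. The deposited tables hold these raw counts, which were not normalized. The strand setting of the counting is not given in the sources used here. Of the reads, 1.28% to 1.82% were ambiguous and 1.71% to 7.47% not unique, and these and the other summary lines were left out of library sizes and tests.

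Samples were grouped by time point from their labels. Counts were fitted over all 56 samples with edgeR 4.0.16 (R 4.3.3; quasi-likelihood test, TMM scaling, filterByExpr), 1 mean per time point, with Benjamini-Hochberg adjustment over 11065 genes per comparison. A call needed an adjusted p under 0.05 and a log2 fold change of at least 1. The fit was tested on simulated data. RPKM was computed from the counts on the exon union of Ensembl release 115, in which 17252 of 17558 IDs were found. The gene Fum1 of the tricarboxylic acid list and the marker wupA were not matched and not analysed here. The maternal marker nos (nanos) was matched to Nos (FBgn0011676), another gene, because letter case was ignored. Ratios were compared with exact permutation tests (scipy 1.17.1). Of the gene lists, up to 3 called genes with the largest change at 18 against 12 h were named. For ERR and Ldh, the 3 genes with the most similar course were named. The 10 genes and the lists were chosen with earlier results of these data known. Alternatives were DESeq2 (1.42.0), its size factors, total counts, no low-count filter, only the 8 samples compared, a replicate block, each replicate left out, no minimum fold, and TMM-scaled or median RPKM. A different TMM reference library, the 20 against 16 h comparison, the Gapdh ratio and the fits without 0 h replicates 1 to 3 were added after seeing the data. All pairs of replicates differed beyond sampling noise, with a chi-square per gene of at least 4.24 over 84 pairs.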

Additional observations from a re-analysis of the deposited data

Results flagged for a closer look

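Of the 140 groups of 4 samples (10 genes at 14 time points), 12 held a sample that stood apart from the other 3, where chance gives about 1 in 20. At 18 h, replicate 4 was the highest in Ald1 (287 RPKM, the others 140.4 to 156.5 RPKM) and in Pgi (58.0 RPKM, the others 30.1 to 31.5 RPKM). Replicate 4 was also the highest in Eno at 14 h (132 RPKM, the others 78.5 to 85.8 RPKM), in Pgi at 4 h (33.2 RPKM, the others 27.7 to 28.0 RPKM) and in Gapdh1 at 10 h (10.3 RPKM, the others 6.94 to 7.33 RPKM). At 16 h it was the lowest in Ldh (163 RPKM, the others 233 to 239 RPKM) and in Tpi (36.5 RPKM, the others 56.1 to 59.4 RPKM).

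In other samples, ERR at 20 h was highest in replicate 3 (20.5 RPKM, the others 16.4 to 16.9 RPKM) and Ald1 at 4 h in replicate 1 (44.5 RPKM, the others 36.1 to 37.4 RPKM). Gapdh1 at 1 h was lowest in replicate 2 (224 RPKM, the others 284 to 296 RPKM). Gapdh2 at 12 h was highest in replicate 1 (14.2 RPKM, the others 7.45 to 8.57 RPKM), and Eno at 2 h in replicate 2 (114 RPKM, the others 108 to 109 RPKM).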

How the results depend on the processing

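Of 45 counts of called genes under other settings, 42 stayed within 1.5 times, and of 88 with a sample left out, 85 did. With no minimum fold, 5 in place of 1 of the 10 genes were called at 12 against 6 h and 5 in place of 3 at 20 against 1 h. With a 2 h library as TMM reference (added after seeing the data), 5 were called at 20 against 1 h. With a sample left out, the count at 12 against 6 h was 0 to 2. Replicate numbers did not pair samples: the mean correlation of deviations was 0.00785 for the same number and -0.00243 for others, and 12 of 56 samples lay closest to their own number. With the replicate block the counts were 8 (6 against 1 h), 1 (12 against 6 h), 8 in place of 9 (18 against 12 h, Pgi at 0.999), 3 (20 against 1 h) and 39 (all steps). Of 658 fold changes of single genes under other settings 9 reversed sign, and of 656 with a sample left out 7 did, all in values that were not called save Ldh at 1 against 0 h (0.89 with 0 h replicate 4 alone). With the 2 h reference these were ERR at 6 against 1 h (-0.046) and, at 20 against 1 h, Pfk (-0.56), Pgi (-0.14), Tpi (-0.59) and Pgk (-0.47). At 20 against 1 h, Gapdh2 was 0.0043 with DESeq2 size factors and 0.0041 with DESeq2, and Tpi was -0.012 with total counts. With a sample left out, Pfk lay between -0.031 (without 12 h replicate 1) and 0.30 at 12 against 6 h and between -0.044 and 0.18 at 20 against 1 h, and Tpi lay there between -0.15 and 0.22. Calls near the fold minimum that were lost were Ald1 at 3 against 2 h (-0.99 with only the 8 samples) and Pfk at 16 against 14 h (0.96 to 1.00 without 14 h replicate 2 or 3 or 16 h replicate 1). With TMM-scaled RPKM, the 16 h means of 8 of the 10 genes moved by more than 1 SD (Ldh 179 RPKM, ERR 16.2 RPKM). Depth limits Tpi and Pfk at 8 h, with 13 to 40 and 44 to 100 counts per sample.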
